A study of Drosophila melanogaster with 6 samples.

Results

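The Hippo and Fat growth control genes are the 9 genes *yki*, *hpo*, *wts*, *ft*, *ds*, *fj*, *ex*, *Mer* and *kibra*, chosen by name. Rows of the count tables carry FlyBase identifiers, and 8 of the 9 genes had a row among the 17471 gene rows. The identifier that the annotation gives *ds* (FBgn0284247) had none, so *ds* was not analysed here. The tables also hold 222 gene rows with identifiers that are not in this annotation, so that *ds* may have been counted under another identifier. RNA was sequenced from the wing discs, epithelial sacs from which the adult wings develop, of wandering female L3 larvae, with 30 discs pooled per sample. The 3 mutant samples were homozygous for the null allele (dLsd1∆N/dLsd1∆N), a deletion made by recombination between piggyBac elements and kept as a stock over a balancer chromosome. The 3 *wild-type* samples came from the w1118 stock, which was inbred but not isogenised, so that genotype and stock cannot be told apart. Each sample is a pool of discs, and the p-values measure the spread between these pools.

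The Hippo pathway limits the size of imaginal discs. The kinase Hippo (*hpo*) activates the kinase Warts (*wts*), and Warts phosphorylates the coactivator Yorkie (*yki*), which then stays out of the nucleus and cannot turn on genes for growth and survival. Expanded (*ex*), Merlin (*Mer*) and Kibra (*kibra*) act upstream of Hippo at the apical cell cortex. Fat (*ft*) and Dachsous (*ds*) are giant cadherins that bind each other between neighbouring cells, and the Golgi kinase Four-jointed (*fj*) phosphorylates their cadherin domains. *ex*, *Mer*, *kibra* and *fj* are themselves known to be turned on by Yorkie, so their transcripts are also used as readouts of the pathway. The study asks how *dLsd1*, a histone demethylase gene, acts on wing size, and the comparison here asks whether the transcripts of these growth regulators differed between the mutant and *wild-type* discs. In whole discs, a change in the number of cells that use a gene and a change in the RNA per cell cannot be told apart.

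The labels were checked with *dLsd1* itself, listed as *Su(var)3-3* on 3L. It had 6.9, 5.1 and 1.0 normalized counts in the mutant libraries, against 1881, 1744 and 2043 in the *wild-type* libraries, where normalized counts are scaled to the mean library size. The mutant libraries held between 35466251 and 42452820 counts and the *wild-type* libraries between 13960866 and 45909324, with *wild-type* replicate 2 the smallest. All of the pouch markers *nub*, *vg*, *rn*, *dve* and *Dll* were found, and they summed to 709 to 770 CPM (counts scaled to library size) in the mutant and 586 to 961 in *wild-type*. The 6 notum markers had sums of 459 to 495 CPM in the mutant and 453 to 537 in *wild-type*. *Wild-type* replicate 3 stood apart in several lists. The sum over 5 hinge markers was 651 to 822 CPM in the mutant, against 522, 572 and 1250 CPM in *wild-type* replicates 1 to 3. In replicate 3 *zfh2* was 4.54-fold and *hth* 4.83-fold over the mean of *wild-type* replicates 1 and 2. These are long genes, with 12424 and 11839 bp of exons. *tsh* was 1.42-fold and *Sox15* 1.08-fold over that mean, and *Lim1* was 1.93-fold on few counts. *hth* and *tsh* of this list are also partners of Yorkie. Fat body RNA varied in both genotypes, with sums over 5 markers of 465, 302 and 93.4 CPM in mutant replicates 1 to 3 and 508, 784 and 55.2 CPM in *wild-type* replicates 1 to 3. The 6 haemocyte markers summed to 61.6 to 82.0 CPM in the mutant and 52.7 to 63.9 in *wild-type*, and the 5 muscle markers to 633 to 714 CPM in the mutant and 410 to 718 in *wild-type*. In these lists 3 genes were called by the rule given in the next paragraph. *Lsp1alpha* (fat body, log2 fold change 2.17) and *Mlc2* (muscle, 0.63) were higher in the mutant, and *NimC1* (haemocytes, -1.88) was lower. *Lsp1alpha* (18.1 to 212.6 normalized counts) and *NimC1* (8.9 to 90.3) rest on low counts. Of the other fat body markers, *Lsp1beta* (0.73) was higher, but *Lsp2* (-0.66), *Fbp1* (-1.08) and *Fbp2* (-1.52) were lower. The other haemocyte markers, *Hml* (0.29), *He* (0.26), *srp* (0.46), *Pxn* (0.69) and *crq* (0.31), were higher. The other muscle markers, *Mhc* (1.13), *up* (1.01), *wupA* (1.49) and *Tm1* (0.28), were higher but not called. *Mhc* (24.7 to 272.0 normalized counts) and *wupA* (44.6 to 216.8) rest on low counts. Without *wild-type* replicate 3 *Mlc2* was at 0.50 and was not called, while *wupA* was called (1.32, edgeR adjusted p = 0.0901). The 4 salivary gland markers summed to 1.89, 9.38 and 3.11 CPM in mutant replicates 1 to 3. In *wild-type* replicates 1 to 3 they summed to 1.32, 19.2 and 0.42 CPM. Of these 4, *fkh* had 0 counts in all 6 libraries, while *Sgs7* had 404.9 normalized counts in *wild-type* replicate 2. The part of these tissues in the results below was not tested.

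With all 6 libraries no gene of the 8 was called differentially expressed, which does not show that none changed. A gene was called when its log2 fold change lay beyond 0.6 in either direction and its Benjamini-Hochberg adjusted p, taken over all features in edgeR's quasi-likelihood test, was under 0.1. By this rule 710 of the 10841 genes tested were called, which is 6.55 percent, against 0 of these 8. In so small a list, 0 is close to that share. The adjusted p alone was passed by 7.93 percent of all genes and by 0 of the 8. An unadjusted p-value below 0.05 was found for 18.5 percent of all genes and for 0 of the 8, and DESeq2 called 814 genes in all and 0 of the 8. The median log2 fold change was 0.00 over the 8 genes and -0.02 over all genes tested. Values of the 2 genotypes overlapped for all 8 genes, whereas 25.1 percent of all genes tested had no overlap. The precision differed between genes, with standard errors (SE) of the log2 fold change of 0.10 to 0.12 for *yki*, *hpo*, *Mer* and *fj*, and of 0.17 to 0.41 for *wts*, *ex*, *ft* and *kibra*.

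*yki* (FBgn0034970; 2R, 24065975 to 24068485 in dm6, the build of all coordinates here) encodes the transcriptional coactivator at the end of the cascade. It had 3175, 2862 and 2755 normalized counts in mutant replicates 1 to 3, against 2600, 3198 and 3145 in *wild-type* replicates 1 to 3. The lowest and the highest of the 6 values were both *wild-type*. For *yki* the log2 fold change was -0.02 (SE 0.12, edgeR adjusted p = 0.932), and the 95% interval of the fold ran from 0.81 to 1.2.

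*hpo* (FBgn0261456; 2R, 19493996 to 19496856) encodes the kinase that gives the pathway its name. It had 4934, 4733 and 4891 normalized counts in the mutant libraries and 5912, 4901 and 4697 in the *wild-type* libraries. Only *wild-type* replicate 1 lay away from the others. For *hpo* this is a log2 fold change of -0.09 (SE 0.12, edgeR adjusted p = 0.712), with a 95% interval of the fold between 0.77 and 1.14. The exons of *hpo* overlap those of *Rep* on the opposite strand over 130 bp, and *Rep* had between 1457 and 1570 normalized counts in the mutant and between 1508 and 1883 in *wild-type*. The libraries were stranded, but the strand setting of the counting is not given in the sources used here.

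*wts* (FBgn0011739; 3R, 30789625 to 30806619), the kinase that acts directly on Yorkie, behaved differently. Its normalized counts were 2650, 2755 and 2892 in the mutant, against 1676, 1834 and 3248 in *wild-type*. All 3 mutant libraries lay above *wild-type* replicates 1 and 2 and below *wild-type* replicate 3. The coefficient of variation of *wts* was 4.39 percent in the mutant and 38.4 percent in *wild-type*. Its log2 fold change of 0.29 (SE 0.25, edgeR adjusted p = 0.557) had an interval of the fold between 0.82 and 1.84.

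*ex* (FBgn0004583; 2L, 431227 to 448701) encodes a FERM domain protein that recruits the cascade to the apical cortex and is widely used as a transcriptional reporter of Yorkie. It had 13375, 15538 and 16827 normalized counts in the mutant libraries, against 10319, 9546 and 26065 in the *wild-type* libraries. *Wild-type* replicate 3 was thus 2.62-fold over the mean of the other *wild-type* libraries and 1.71-fold over the mutant mean. The means were nearly equal, 15247 ± 1744 in the mutant and 15310 ± 9322 in *wild-type* (SD, n = 3 each), and the log2 fold change of *ex* was -0.01 (SE 0.41, edgeR adjusted p = 0.994). The interval of the fold, 0.49 to 2.01, was the widest of the 8 genes. The exons of *ex* and of *crq*, a scavenger receptor gene on the opposite strand, share 448 bp. *crq* had 1531, 1678 and 1851 normalized counts in the mutant and 1356, 1078 and 1650 in *wild-type*. Whether reads of *crq* enter the *ex* counts was not tested.

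*Mer* (FBgn0086384; X, 19689697 to 19693500) encodes the other FERM domain protein of this group, the fly counterpart of the human NF2 tumour suppressor. It had 2232, 2184 and 1962 normalized counts in the mutant and 2055, 2156 and 2332 in *wild-type*. The ranges overlapped between 2055 and 2232. *Mer* had a log2 fold change of -0.04 (SE 0.11, edgeR adjusted p = 0.882), with an interval of the fold between 0.82 and 1.16. *kibra* (FBgn0262127; 3R, 14697689 to 14724261), a WW domain protein that binds Merlin and Expanded, had 1699, 1840 and 1623 normalized counts in the mutant, against 1375, 1266 and 1975 in *wild-type*. As for *wts* and *ex*, the mutant values lay between those of *wild-type* replicates 1 and 2 and that of replicate 3. In *kibra* the log2 fold change was 0.16 (SE 0.17, edgeR adjusted p = 0.652), with an interval of the fold between 0.85 and 1.47.

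*ft* (FBgn0001075; 2L, 4198404 to 4221796), the cadherin that signals to Warts, had 20353, 19651 and 21493 normalized counts in the mutant, against 17506, 12762 and 23062 in *wild-type*. *Wild-type* replicate 2 was the lowest and replicate 3 the highest of the 6 libraries. With this spread, *ft* had a log2 fold change of 0.21 (SE 0.20, edgeR adjusted p = 0.613), with an interval of the fold between 0.84 and 1.59. *fj* (FBgn0000658; 2R, 18232761 to 18236311), the kinase that tunes the binding of Fat to Dachsous, was the steadiest gene. It had 8978, 8748 and 8960 normalized counts in the mutant and 8798, 8473 and 9367 in *wild-type*, which are coefficients of variation of 1.44 and 5.10 percent. Its log2 fold change was 0.00 (SE 0.10, edgeR adjusted p = 0.990), with an interval of the fold between 0.85 and 1.18.

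**Figure D1:**
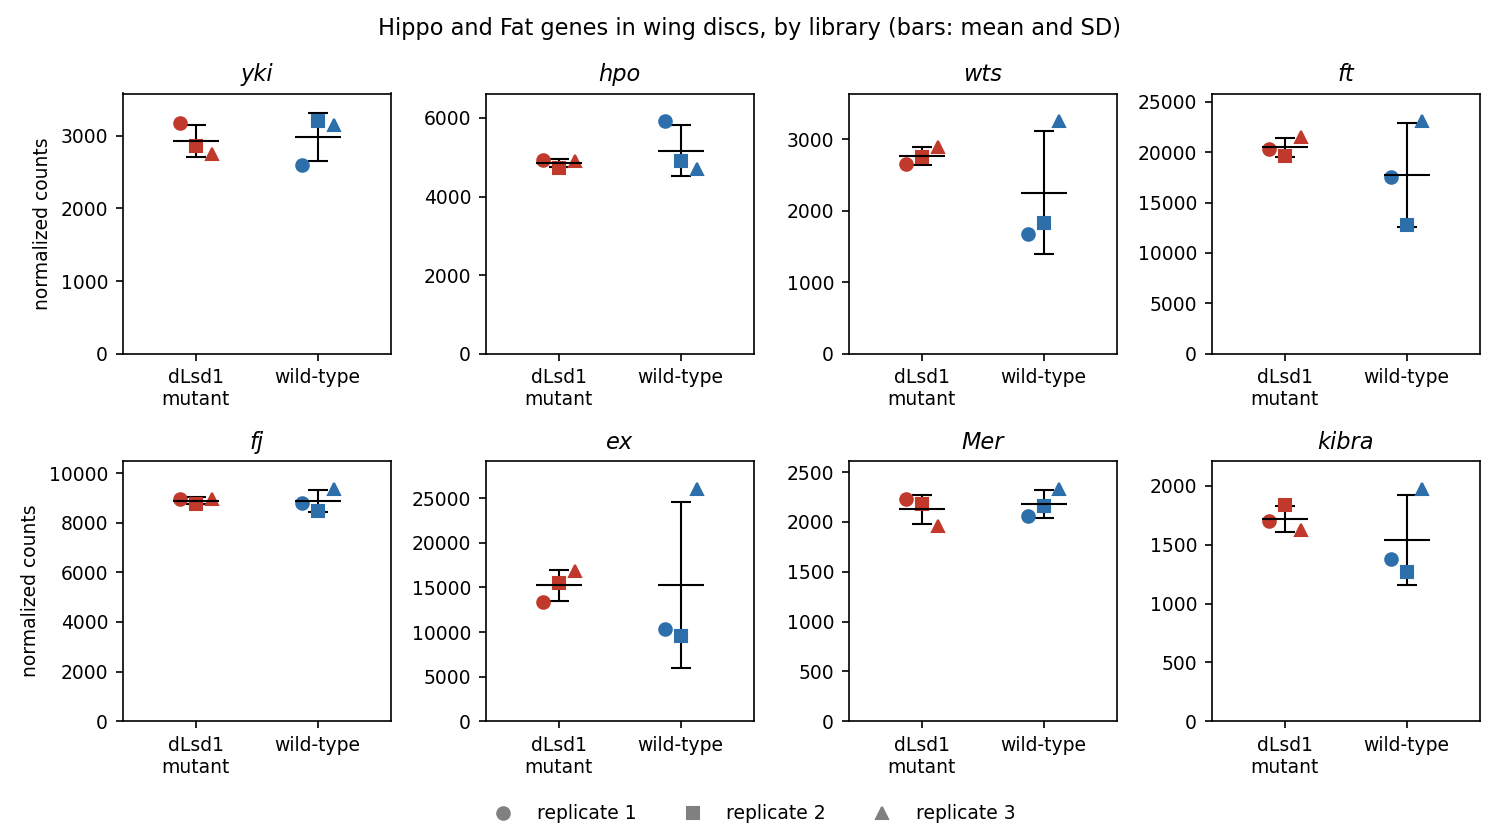
Normalized counts (vertical axes, from 0) of the 8 Hippo and Fat genes in the dLsd1 mutant libraries (red, left in each panel) and the wild-type libraries (blue, right); symbols mark the replicate number, and black bars are the mean and SD of 3 libraries. For wts, ft, ex and kibra the mutant values lie between wild-type replicates 1 and 2 and wild-type replicate 3, which reaches 26065 for ex.

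Levels of different genes were compared as CPM per kb of exonic length. In the mutant the order was *fj* (69.5 ± 1.0 CPM per kb), *ex* (63.4 ± 7.25), *yki* (53.3 ± 3.96), *hpo* (48.0 ± 1.04), *ft* (33.7 ± 1.53), *Mer* (17.3 ± 1.18), *wts* (13.2 ± 0.58) and *kibra* (8.30 ± 0.533; SD, n = 3 libraries each). The order of the means was the same in *wild-type*, with 69.4 ± 3.53 CPM per kb for *fj*, 63.6 ± 38.8 for *ex*, 54.2 ± 6.02 for *yki*, 51.1 ± 6.43 for *hpo*, 29.3 ± 8.49 for *ft*, 17.8 ± 1.14 for *Mer*, 10.8 ± 4.14 for *wts* and 7.42 ± 1.84 for *kibra*. Of the 7 pairs of neighbours in this order, 5 had ranges that did not overlap in the mutant and 3 in *wild-type*. The levels of *fj* and *ex*, and of *ex* and *yki*, could not be separated in either genotype. *fj* stood at percentile 88.6 of all genes tested by this measure, and *kibra* at percentile 44.1. The kinase *wts* was thus among the weakly expressed members and the kinase *hpo* among the strong ones, in both genotypes.

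The *wild-type* libraries varied more than the mutant libraries for 7 of the 8 genes, all but *Mer*. *Wild-type* replicate 3 was the highest of the 6 libraries for 6 of the 8 genes, all but *yki* and *hpo*, and for 20.1 percent of all genes tested. It exceeded the mean of *wild-type* replicates 1 and 2 by at least 1.4-fold, a fold set after the values were seen, for 4 genes, *ex* (2.62-fold), *wts* (1.85-fold), *ft* (1.52-fold) and *kibra* (1.49-fold). The ratio was between 0.87 and 1.11 for the other 4. For each of these 4 genes the mutant libraries lay between replicate 3 and the other *wild-type* libraries, a pattern found in 10.1 percent of all genes tested.

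The genes that varied are also the longest. *ft* has 16852 bp of exons, *ex* 6672 bp, *wts* 5803 bp and *kibra* 5750 bp, against 1525 to 3551 bp for *yki*, *hpo*, *Mer* and *fj*. Genes with a mean of at least 100 counts were divided into 5 equal classes by exonic length, and the 4 long genes fell into the longest class (from 4249 bp). In that class the median log2 difference from the mean of all libraries was 0.04, 0.07 and 0.14 in mutant replicates 1 to 3, against -0.23, -0.31 and 0.25 in *wild-type* replicates 1 to 3. In the shortest class (up to 1210 bp) it was -0.02, -0.06 and -0.10 in the mutant and 0.16, 0.09 and -0.07 in *wild-type*. *Wild-type* replicate 3 exceeded the other *wild-type* libraries by at least 1.4-fold for 52.6 percent of the genes in the longest class and for 2.64 percent of those in the shortest. The excess of *ex* was reached by 13.1 percent of the genes in the longest class. With the trend removed from all 6 libraries, a setting chosen after seeing the data, the log2 fold change was 0.17 for *wts* (SE 0.12), -0.09 for *ex* (SE 0.21), -0.04 for *ft* (SE 0.20) and 0.01 for *kibra* (SE 0.10).

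**Figure D2:**
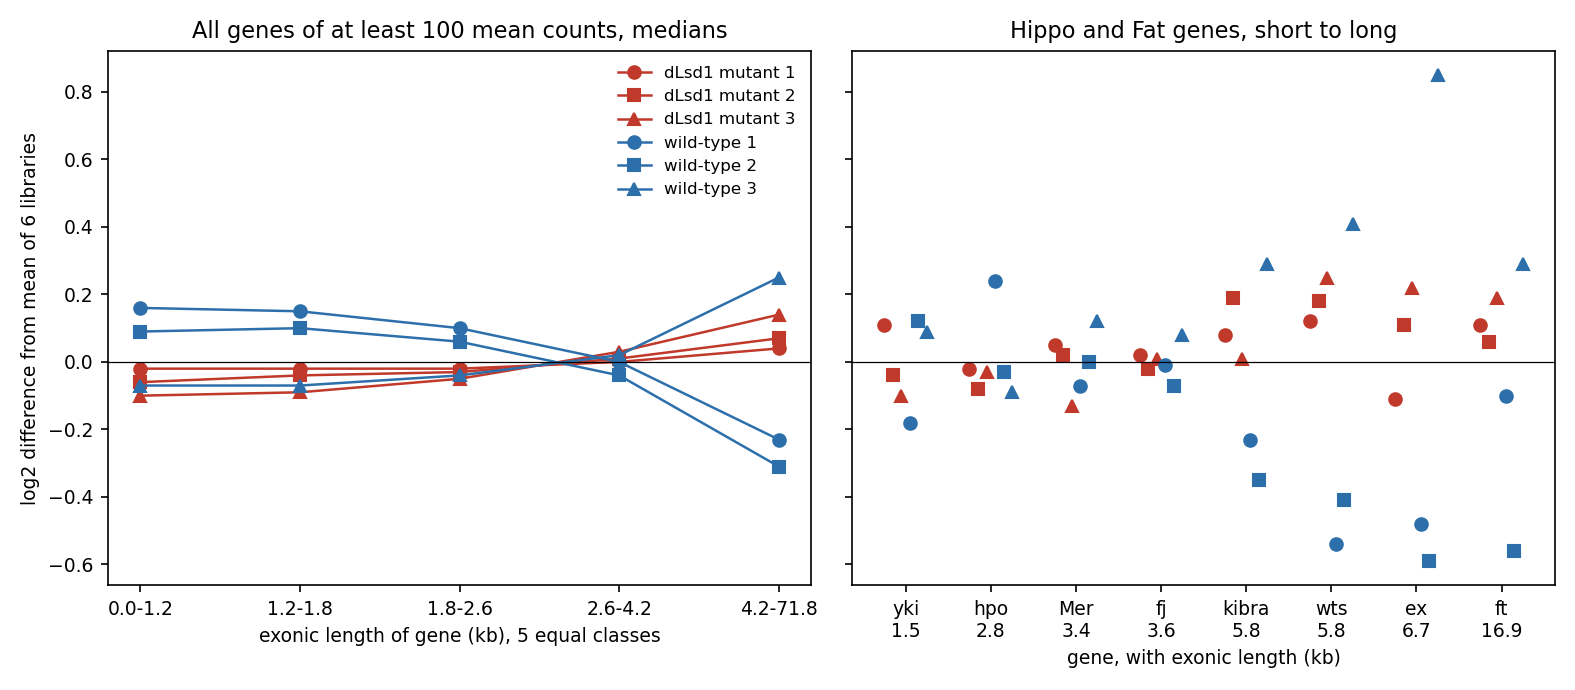
Left, median log2 difference of each library from the mean of the 6 libraries (vertical axis) in 5 classes of exonic length (horizontal axis, kb), over genes with a mean of at least 100 counts. Right, the same difference for each of the 8 genes, ordered by exonic length; red is dLsd1 mutant, blue wild-type, and symbols mark the replicate number. In the longest class wild-type replicate 3 is at 0.25 and wild-type replicates 1 and 2 at -0.23 and -0.31, and in the 4 longest genes wild-type replicate 3 is the highest library, with ex at 0.85.

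With *wild-type* replicate 3 left out, *wts* and *ex* passed both thresholds. *wts* then had a log2 fold change of 0.66 (SE 0.09, edgeR adjusted p = 0.00310) and *ex* one of 0.62 (SE 0.12, edgeR adjusted p = 0.00872), and all 3 mutant libraries were higher than both remaining *wild-type* libraries for each gene. *ft* (0.44, edgeR adjusted p = 0.0491) and *kibra* (0.38, edgeR adjusted p = 0.0279) passed the adjusted p but not the fold. Thus 2 of 8 genes were called higher in the mutant without this library, when 11.1 percent of all genes were (15.0 percent in either direction), and 4 of 8 passed the adjusted p in that direction, when 19.7 percent of all genes did. *yki* (0.02), *fj* (0.04), *Mer* (0.01) and *hpo* (-0.16) did not pass in that fit either. The 4 genes that passed are all in the longest class, whose own share in that fit was not counted. In the longest class the medians were 0.04, 0.07 and 0.14 in the mutant, against -0.23 and -0.31 in *wild-type* replicates 1 and 2. Without replicate 3 the length trend thus follows genotype, and removing it also takes out any genotype difference that long genes share. When the trend with exonic length was also removed from each library, again chosen after seeing the data, the log2 fold change was 0.29 for *wts* (edgeR adjusted p = 0.0454), 0.21 for *ex* (edgeR adjusted p = 0.143), 0.02 for *kibra* and -0.22 for *ft*, and 0 of the 8 genes were called, when 11.7 percent of all genes were (7.09 percent higher in the mutant). In that setting *hpo* passed the adjusted p (-0.24, edgeR adjusted p = 0.0879), so that with *wts* 2 of the 8 did, when 34.4 percent of all genes did. The same 2 genes had an unadjusted p below 0.05, when 39.1 percent of all genes had. In so small a list, 2 of 8 is close to both shares.

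Taken by replicate number, the direction for the long genes also depended on the pair. The labels do not say that libraries of equal number share a batch, so these pairs are an assumption. The log2 ratio of mutant over *wild-type* for *ex* was 0.37 in pair 1, 0.70 in pair 2 and -0.63 in pair 3. For *wts* it was 0.66, 0.59 and -0.17 in the same pairs, for *kibra* 0.30, 0.54 and -0.28, and for *ft* 0.22, 0.62 and -0.10. Pair 3, which holds *wild-type* replicate 3, went the other way for each of them. With the replicate number as a block, 0 of the 8 genes were called, when 4.62 percent of all genes were called higher and 2.38 percent lower in the mutant, and the log2 fold change was 0.36 for *wts* (edgeR adjusted p = 0.287) and 0.15 for *ex* (edgeR adjusted p = 0.734).

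**Figure D3:**
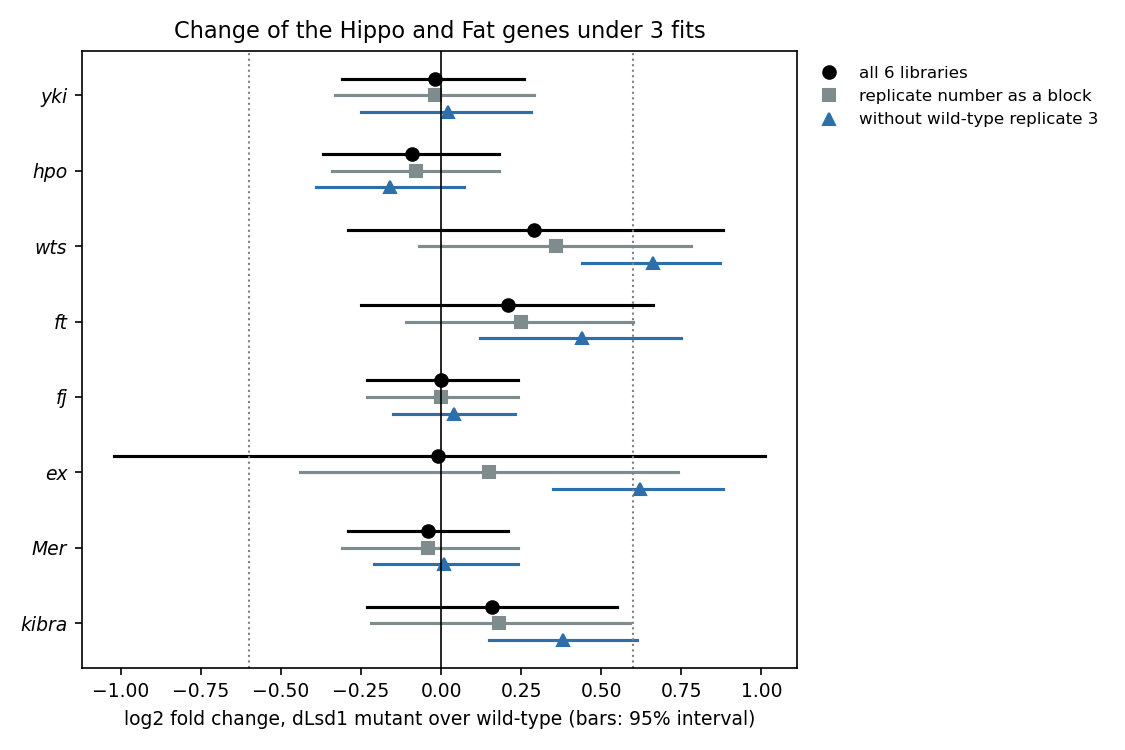
Log2 fold change of dLsd1 mutant over wild-type (horizontal axis) with its 95% interval for the 8 Hippo and Fat genes, from all 6 libraries (black), with the replicate number as a block (grey) and without wild-type replicate 3 (blue); dotted lines mark the fold threshold of 0.6. The intervals of yki, hpo, Mer and fj are narrow and include 0 in each fit, while wts and ex move to 0.66 and 0.62 without that library.

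The rest of the pathway was described with lists of 52 genes in 5 roles, of which 50 had a row and were tested. Of these 50 genes, 0 were called higher and 1 lower in the mutant, when 4.32 percent of all genes were called higher and 2.23 percent lower. The median log2 fold change over the 50 was -0.03. Values of the genotypes did not overlap for 4 of the 50 genes, when they did not for 25.1 percent of all genes: *Sik2*, *Wbp2*, *14-3-3epsilon* and *dlp*. Apart from *Sik2* these 4 were named after their values were seen, and their log2 fold changes were -0.31 for *Wbp2*, -0.14 for *14-3-3epsilon* and 0.32 for *dlp*, none past the thresholds.

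Among 13 partners of the kinase core, *Sik2* was the gene called. It encodes a salt-inducible kinase, a family that restrains Hippo signalling by phosphorylating Salvador. *Sik2* had 12.9, 27.2 and 23.4 normalized counts in the mutant, against 64.3, 41.3 and 58.2 in *wild-type*, a log2 fold change of -1.38 (SE 0.38, edgeR adjusted p = 0.0842). These counts are low. The call was lost with the replicate block (edgeR adjusted p = 0.116) and without mutant replicate 1, 2 or 3 or *wild-type* replicate 1 (edgeR adjusted p of 0.159 to 0.261). *Sik3*, from the same family, had between 2373 and 2572 normalized counts in the mutant and 1571, 1607 and 2920 in *wild-type*. The scaffold gene *sav* and the Warts cofactor gene *mats* had log2 fold changes of -0.04 and -0.01, with SEs of 0.15 and 0.11.

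Of the 12 apical regulators and the 7 effectors of Fat and Dachsous, 0 were called in either direction, with medians of -0.03 and 0.00. In both lists 0 genes had an unadjusted p-value below 0.05, against the 18.5 percent of all genes, and DESeq2 called none of the 50 genes other than *Sik2*. *dachs*, the unconventional myosin that Fat holds back, had 19671, 20711 and 18674 normalized counts in the mutant and 20527, 22903 and 20494 in *wild-type*. Its log2 fold change was -0.11 (SE 0.11, edgeR adjusted p = 0.614). *dachs* has 6113 bp of exons but did not share the excess in *wild-type* replicate 3, where it stood at 0.94 of the mean of the other *wild-type* libraries.

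Yorkie acts through the TEAD protein Scalloped (*sd*). *sd* had 8017, 10397 and 10895 normalized counts in the mutant, against 6709, 6329 and 17469 in *wild-type*, again with the mutant between *wild-type* replicate 3 and the others. Its log2 fold change was -0.06 (SE 0.43, edgeR adjusted p = 0.954), and 0.58 without *wild-type* replicate 3 (edgeR adjusted p = 0.0192), which is short of the fold threshold. Of the 11 partners of Yorkie 0 were called, 1 (*Wbp2*) had an unadjusted p-value below 0.05, and the median was -0.07.

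Of the 9 listed Yorkie targets 7 had a row under their identifier in the annotation, and *wg* and *mir-ban* were not analysed here. Of the 7, 0 were called and 0 had an unadjusted p-value below 0.05. Their median log2 fold change was 0.15. *Diap1*, which blocks caspases, had 14919, 15315 and 13105 normalized counts in the mutant, against 18070, 17237 and 15177 in *wild-type*, a log2 fold change of -0.22 (SE 0.12, edgeR adjusted p = 0.374). The ranges met only between mutant replicate 2 and *wild-type* replicate 3. By replicate number, *Diap1* was lower in the mutant in 3 of 3, with log2 ratios of -0.28, -0.17 and -0.21. *dlp*, another listed target, was higher in 3 of 3 (0.35, 0.63 and 0.03). The share of all genes with 1 direction throughout was not counted. With the replicate block the edgeR adjusted p of *Diap1* was 0.238. Without *wild-type* replicate 3 it was 0.0662 (log2 fold change -0.29), when 37.5 percent of all genes passed. With the length trend removed as well it was 0.0194 (-0.41), when 34.4 percent did. *CycE*, which drives entry into S phase, had 2719, 3190 and 3008 normalized counts in the mutant and 1973, 2373 and 3572 in *wild-type*, a log2 fold change of 0.17 (SE 0.21, edgeR adjusted p = 0.698). *Myc*, the growth regulator, varied most. It had 404.4, 879.0 and 1130 normalized counts in the mutant and 378.6, 887.2 and 3108 in *wild-type*, so that the spread within a genotype was larger than the difference between the means (log2 fold change of -0.86, SE 0.82, edgeR adjusted p = 0.611). Without *wild-type* replicate 3 the direction of *Myc* turned, to a log2 fold change of 0.39 (edgeR adjusted p = 0.668).

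Without *wild-type* replicate 3, 8 of the 50 genes were called higher and 1, *Sik2*, lower in the mutant, when 11.1 percent and 3.87 percent of all genes were. These genes were named after their values were seen. The 8 were *Sik3*, *ed*, *l(2)gl*, *app*, *Gug*, *Hipk*, *Ncoa6* and *E2f1*, with log2 fold changes in that fit of 0.63 to 0.95, and all 8 belong to the longest class of genes, as do 29 of the 48 pathway genes that could be placed. The share of the longest class called in that fit was not counted. The median log2 fold change over the 50 genes was 0.40 without this library, against -0.00 over all genes. With the length trend removed as well, 0 of the 50 were called higher and 1 lower, when 7.09 percent of all genes were called higher and 11.7 percent in either direction. The gene called lower was again *Sik2* (-1.67, edgeR adjusted p = 0.0242). As above, the length trend without this library follows genotype, so its removal also takes out any genotype difference that long genes share.

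**Figure D4:**
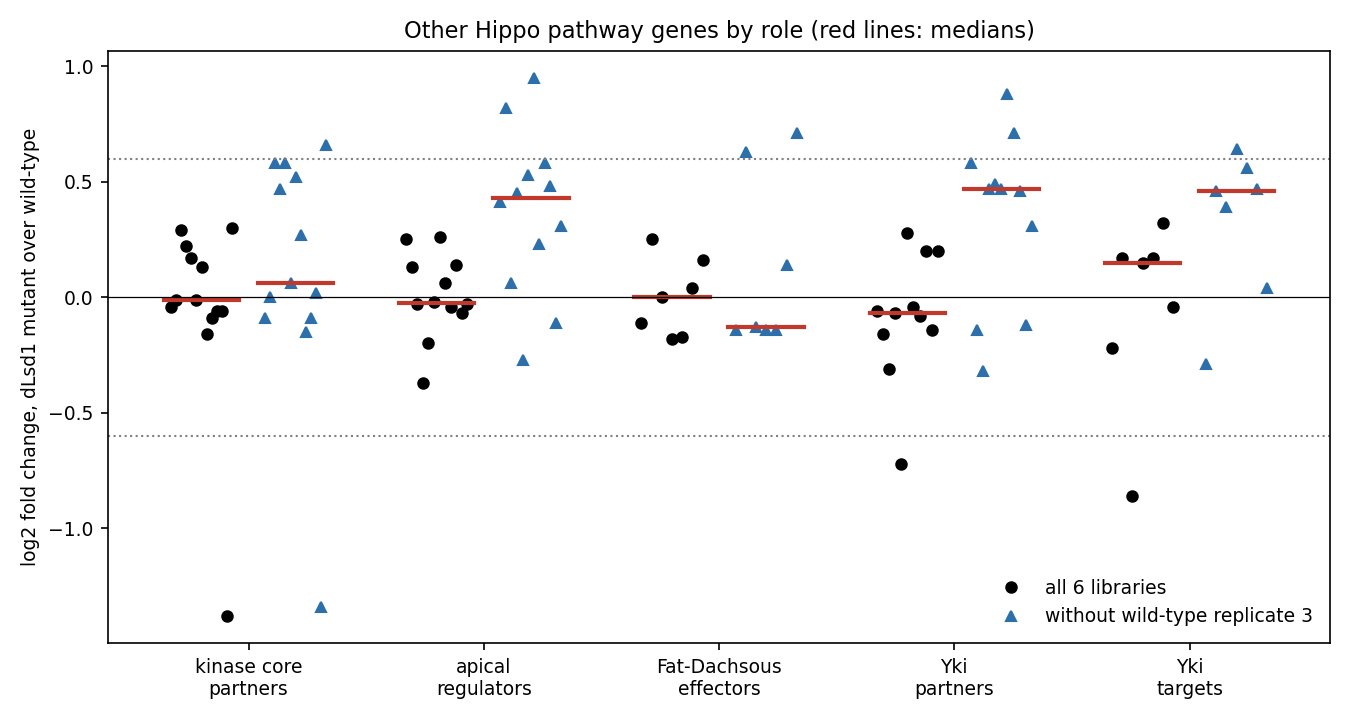
Log2 fold change of dLsd1 mutant over wild-type (vertical axis) for the 50 other Hippo pathway genes by role, from all 6 libraries (black circles) and without wild-type replicate 3 (blue triangles); red lines are medians and dotted lines the fold threshold of 0.6. Sik2, at -1.38, is the black circle beyond the threshold that was called, and the medians of the apical regulators, Yki partners and Yki targets lie at 0.43, 0.47 and 0.46 without that library.

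Of the 8 genes, *wts* had the largest absolute log2 fold change, and the genes with the most similar profile to it over the 6 libraries were sought among 7477 genes with a mean of at least 100 counts. They were *CG6040* on 3R (Pearson's r of 0.999 on log2 CPM), *rut*, an adenylyl cyclase gene on X (0.996), and the Hippo pathway gene *Sik3* on 2R (0.995). These values are a description over 6 libraries, which differ in depth and in their length trend. *CG6040* had 4411, 4510 and 4694 normalized counts in the mutant and 3048, 3198 and 5073 in *wild-type*, which is the profile of *wts*, with *wild-type* replicate 3 above the mutant and the other *wild-type* libraries below it.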

How the data were processed

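RNA-seq libraries of 3 *dLsd1* mutant and 3 *wild-type* wing disc samples were used. Per the submitters' notes and the paper, reads were trimmed with Trimmomatic 0.36 and aligned to dm6 with STAR 2.5.2a. The paper also states removal of duplicates and names htseq-count for genes, but it does not say whether either step lies behind these tables. The authors deposited whole-number counts per gene and TE family, not normalized, in the layout of TEToolkit; the annotation release, strand setting and treatment of reads with several matches are not given in the sources used here. Each table held 17471 gene rows, 17249 of which matched the BDGP6 annotation (dm6 coordinates), and 171 TE rows.

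Features with at least 10 counts over the 6 libraries (10841 genes) were fitted together with edgeR 4.0.16 in R 4.3.3. The fit used TMM, a robust quasi-likelihood F-test and Benjamini-Hochberg adjustment over all these features. The procedure was tested on simulated counts, which held no length trend and no library that stood apart. The standard error is the log2 fold change over the root of F, and 95% intervals use the test's degrees of freedom. Exonic length is the union of annotated exons. Counts of same-genotype libraries differed beyond sampling noise. Samples were grouped by GEO's labels. The labels do not say that equal numbers share a batch. Deviations from the genotype means correlated between same-numbered libraries (0.375, 0.176 and 0.433), and on this ground the numbers were taken as pairs. Mutant replicate 1 and *wild-type* replicate 2 also correlated (0.327), more than the libraries numbered 2 did (0.176), so the pairing is not established.

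All members, *dLsd1*, pathway genes called or with an adjusted p below 0.1, *Diap1*, *CycE*, *Myc*, *sd*, *sav*, *mats* and *dachs* were named, with the 3 genes most correlated with the member of the largest change. Members and lists were chosen with earlier results of these data known. Alternatives were DESeq2 1.42.0, other normalizations and filters, genes without TE families, the replicate block, each library left out and, added later, removal of the length trend (loess) alone or without *wild-type* replicate 3.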

Additional observations from a re-analysis of the deposited data

How the results depend on the processing

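For the 8 Hippo and Fat genes, the number called was 0 in each fit other than the one without *wild-type* replicate 3. With a library left out in turn, it ranged from 0 to 2, the number past the adjusted p from 0 to 4, the number of other pathway genes called from 0 to 9 and the number of all genes called from 373 to 1588 (710 with all libraries), the last of each range without *wild-type* replicate 3. The log2 fold change then ranged from -0.12 to 0.03 for *yki*, -0.16 to 0.01 for *hpo*, 0.12 to 0.66 for *wts*, 0.01 to 0.44 for *ft*, -0.03 to 0.04 for *fj*, -0.26 to 0.62 for *ex*, -0.08 to 0.02 for *Mer* and 0.04 to 0.38 for *kibra*. For pathway genes it ranged from -0.00 to 0.46 for *CycE*, -1.32 to 0.39 for *Myc*, -0.31 to 0.58 for *sd*, -0.12 to 0.10 for *sav*, -0.06 to 0.04 for *mats* and -1.62 to -1.12 for *Sik2*.

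With the replicate block the number of other pathway genes called was 0, *ex* was at 0.15 and *sd* at 0.10. The block called 0 of the 8 genes. It also called markers not called in the main fit. These were *Lsp1beta* (1.06), *Pxn* (0.69), *Mhc* (1.32) and *wupA* (1.37), higher in the mutant, and *Fbp2* (-1.58), lower. Upper-quartile normalization put *ex* at 0.03 and *mats* at 0.01, and filterByExpr put *fj* at -0.00. With the length trend removed *ft* was at -0.04 and *fj* at -0.11. With *wild-type* replicate 3 left out as well, 1242 genes were called in all, 2 of the 8 (*wts*, *hpo*) passed the adjusted p, as did 34.4 percent of all genes, and *yki* was at 0.05, *ft* at -0.22, *fj* at -0.13, *ex* at 0.21, *sd* at 0.08 and *mats* at 0.01. The cause of these shifts was not tested. *Sik2* rests on 12.9 to 64.3 normalized counts per library.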
